A study of Mus musculus with 15 samples.

Results

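The 40 genes described here encode proteins that build, sort and release membrane vesicles: 7 tetraspanins, 6 Rab GTPases, 14 subunits of ESCRT-0, ESCRT-I, ESCRT-II and ESCRT-III, 4 partners of the ESCRT machinery, 2 sphingomyelinases, 5 flotillin, caveolin, clathrin and dynamin genes, and 2 genes of phosphatidylserine binding. They come from a list of 41 genes, chosen by function with earlier results of these data known. The list was matched by symbol to probe sets with a single gene symbol, out of 22180 genes measured. Vps25, a subunit of ESCRT-II, has no such probe set and was not analysed here. The study asked how vesicles from stromal cells affect blood-forming cells in short culture. LSK cells are the lineage-negative, Sca-1-positive, c-Kit-positive fraction of mouse marrow that holds hematopoietic stem and progenitor cells. RNA was measured on 15 Affymetrix Mouse Gene 2.0 arrays, 5 in each of 3 groups: sorted cells that were not cultured, cells kept for 18 h in MyeloCult M5300 medium without extracellular vesicles (EV), and cells kept for 18 h in that medium with EV from AFT stromal cells. The labels name no strain, age, sex, EV dose or pooling of animals, and no group is labelled as given EV of another cell or a mock preparation. Per the design text the replicates are biological, but no source says whether they were separate animals or cultures, so the p-values measure the spread between these samples.

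Cells send out vesicles by 2 main routes. Exosomes form when the membrane of a late endosome buds inward, pinched off by the ESCRT complexes or by a ceramide-dependent route, and are freed when Rab GTPases carry the endosome to the surface. Other vesicles bud straight from the plasma membrane, and tetraspanins organise both kinds of membrane and are common vesicle markers. Vesicles are taken up by endocytosis through clathrin, caveolin or dynamin, or by receptors that bind phosphatidylserine, and early endosomes carrying Rab5 receive them. These are RNA levels, which say nothing of the amount of vesicles made or taken up.

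Values are the deposited array signals on a log2 scale, so a difference of 1 is a doubling, and levels are not compared between genes because each probe set has its own response. A gene was called when limma's moderated test gave a Benjamini-Hochberg adjusted p below 0.05 over all 22180 genes. In the sentences below the values of replicates 1 to 5 are given in that order. The labels' cell type was checked on 8 of 10 LSK marker genes. Of these 8, 3 were called higher and 1 lower without EV, and 1 higher and 1 lower with EV. Their mean signal ran from 7.93 to 8.38 on the non-cultured arrays, from 8.14 to 8.29 without EV and from 7.87 to 8.26 with EV, and Kit, the receptor that helps define the fraction, averaged 9.62, 10.01 and 9.88. Ly6a, which encodes Sca-1, was not analysed here. With-EV replicate 1 stood apart: it correlated with the rest of its group at a mean of 0.928 (the 4 others at 0.943 to 0.947) and had the lowest weight of all arrays, 0.350.

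Culture moved 8 of the 40 genes without EV and 7 with EV, and 5 genes moved in both comparisons. Cd63, Cd9 and Rab27a rose in both, and Cd53 and Rab5a fell in both. Of all 22180 genes, 995 were called higher in both and 1231 lower in both. Without EV, 6 genes were called higher (6.75% of all genes) and 2 lower (6.88% of all genes), which is 20% of the 40 beside 13.6% of all genes. With EV, 4 were called higher (6.28% of all genes) and 3 lower (7.85% of all genes), which is 17.5% beside 14.1%. Shares this near to those of all genes are no result about the 40 genes as a set. The 2 comparisons share the 5 non-cultured arrays, so a shift in those arrays would move both. In bulk RNA, fewer cells of a type and less RNA per cell cannot be told apart.

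Promoters are shown for 4 of these 5 genes because they moved in both comparisons and in opposite directions. RefSeq (GRCm38.p6) lists 41 promoters for 33 of the genes, and the 250 bases before the start are printed 5′ to 3′ on the gene's strand, with matches to the motifs CACGTG (an E-box) and CCAAT, searched on both strands, in capitals. The windows are Cd63 on chr10:128909095-128909344 (plus strand), Cd53 on chr3:106790150-106790399 (minus strand), the second of 2 Rab27a promoters on chr9:73063898-73064147 (plus strand) and Rab5a on chr17:53478984-53479233 (plus strand). The Cd63 and Rab27a windows lie inside the spans of their genes (chr10:128896231-128912822 and chr9:73044810-73097623), before internal starts. Those of Cd53 and Rab5a lie directly before the spans of theirs.
Cd63: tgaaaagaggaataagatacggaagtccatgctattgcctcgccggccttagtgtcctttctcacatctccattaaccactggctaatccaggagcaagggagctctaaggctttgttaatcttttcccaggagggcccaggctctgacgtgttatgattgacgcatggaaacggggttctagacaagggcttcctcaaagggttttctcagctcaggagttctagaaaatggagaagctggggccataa
Cd53: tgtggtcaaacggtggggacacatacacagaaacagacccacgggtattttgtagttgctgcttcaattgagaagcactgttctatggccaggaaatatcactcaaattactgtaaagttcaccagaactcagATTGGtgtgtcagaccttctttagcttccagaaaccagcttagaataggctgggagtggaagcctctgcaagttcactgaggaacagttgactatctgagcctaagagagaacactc
Rab27a: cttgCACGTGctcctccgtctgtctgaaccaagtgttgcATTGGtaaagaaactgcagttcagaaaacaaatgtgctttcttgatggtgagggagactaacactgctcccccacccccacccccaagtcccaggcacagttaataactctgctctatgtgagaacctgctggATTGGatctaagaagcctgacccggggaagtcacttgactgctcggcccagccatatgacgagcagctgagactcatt
Rab5a: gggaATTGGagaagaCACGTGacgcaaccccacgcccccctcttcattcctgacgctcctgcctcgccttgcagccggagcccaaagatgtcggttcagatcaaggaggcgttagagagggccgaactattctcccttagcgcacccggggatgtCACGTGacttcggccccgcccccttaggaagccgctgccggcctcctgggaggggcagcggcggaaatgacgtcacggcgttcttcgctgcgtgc

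The Rab5a window holds CACGTG at 235 and 95 bases before the start, and this Rab27a window holds 1 at 246. A link between these matches and the changes of the 2 genes was not tested. CACGTG occurred in 6.02% of all 32851 RefSeq promoter windows and in 4 of the 41 listed for these genes (9.76%). The windows of Cd63 (before an internal start), of Cd9 and of the other Rab27a promoter held none of the 6 motifs searched. CCAAT occurred in 33.8% of all windows and 29.3% of these 41. Of the other motifs, TGACTCA (AP-1) was found in 4.46% of all windows and in 0 of the 41. TGACNNNGC (the antioxidant response element core) was in 10.2% and 12.2%. GAGGAAGT (bound by PU.1) was in 2.44% and 4.88%. The TATA box, searched as TATAAA, was in 12.4% of all windows and 4.88% of these. TGACTCA and TGACNNNGC can match overlapping bases. A match is a description of the letters in the window.

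Tetraspanins are membrane proteins that gather integrins, receptors and signalling proteins into patches. Cd63, the tetraspanin of late endosomes, lysosomes and exosomes, rose 2.77-fold without EV and 2.63-fold with EV. Its signal was 9.93, 9.69, 9.90, 9.90 and 9.54 on the non-cultured arrays, 11.41, 11.26, 11.29, 11.23 and 11.14 without EV, and 11.23, 11.26, 11.20, 11.17 and 11.05 with EV. The 10 cultured arrays all lay above the 5 non-cultured ones, by more than 1 log2 unit. The limma difference was 1.47 ± 0.09 (SE) without EV (adjusted p = 1.81e-08) and 1.39 ± 0.09 with EV (adjusted p = 3.49e-08). Cd53, a tetraspanin of white blood cells, went the other way: 9.61, 9.62, 9.40, 9.36 and 9.32 on the non-cultured arrays, 8.54, 8.33, 8.53, 8.07 and 8.03 without EV, and 8.0, 8.35, 8.39, 8.26 and 7.94 with EV. No cultured array reached the lowest non-cultured one. Cd53 fell by 1.16 ± 0.13 on the log2 scale without EV (2.24-fold, adjusted p = 1.02e-05) and by 1.27 ± 0.13 with EV (2.42-fold, adjusted p = 3.91e-06).

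Cd9, which partners integrins and takes part in cell adhesion and fusion, was at 7.02, 7.06, 7.22, 6.66 and 6.96 on the non-cultured arrays, at 7.78, 7.78, 7.98, 7.26 and 7.72 without EV and at 7.90, 8.19, 7.85, 7.86 and 7.69 with EV. The groups did not overlap, although without-EV replicate 4 lay only just above the highest non-cultured array. Cd9 rose 1.65-fold without EV (0.72 ± 0.14, adjusted p = 0.00165) and 1.88-fold with EV (0.91 ± 0.14, adjusted p = 0.000217). This comes from the brighter of 2 probe sets. The dimmer one gave -0.04 (adjusted p = 0.933) and -0.06 (adjusted p = 0.854) in a fit of all probe sets, and the mean of the 2 probe sets gave 0.34 (adjusted p = 0.0473) and 0.43 (adjusted p = 0.0139).

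Cd151, a tetraspanin bound to laminin-binding integrins, was at 6.18, 6.31, 6.84, 6.61 and 6.88 on the non-cultured arrays, 8.12, 7.99, 7.96, 6.91 and 7.55 without EV, and 6.43, 7.74, 7.17, 7.39 and 7.47 with EV. It rose 2.21-fold without EV (1.14 ± 0.25, adjusted p = 0.00538), with all 5 arrays above the non-cultured ones. With EV the difference was 0.67 ± 0.25 and missed the threshold (adjusted p = 0.0930), with replicate 1 inside the non-cultured range. Leaving out with-EV replicate 1 gave 0.88 (adjusted p = 0.0173).

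The other 3 tetraspanins were not called. Cd81, a partner of Cd9 in the same membrane patches, had its 5 without-EV arrays, at 10.39 to 10.57, above the non-cultured arrays, at 10.06 to 10.37, with a difference of 0.25 ± 0.09 (adjusted p = 0.0899). With EV its difference was 0.26 ± 0.09 (adjusted p = 0.0786). Cd37, a tetraspanin of lymphoid and myeloid cells, differed by -0.18 and -0.27, and Cd82, which restrains migration, by -0.09 in both comparisons. The change in Cd9 minus that in Cd81 was 0.47 without EV (exact permutation test of the per-array log ratio, two-sided, p = 0.0159) and 0.65 with EV (exact p = 0.00794, the smallest that 5 against 5 arrays can give). Adjusted over the 18 tests on 6 pairs of related genes, both were 0.0571, and 0 of the 18 tests passed 0.05, against 5 before adjustment. The pair used the brighter Cd9 probe set. The mean of the 2 Cd9 probe sets rose by 0.34 and 0.43, nearer to the changes of Cd81, and was not tested in the pair.

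**Figure D1:**
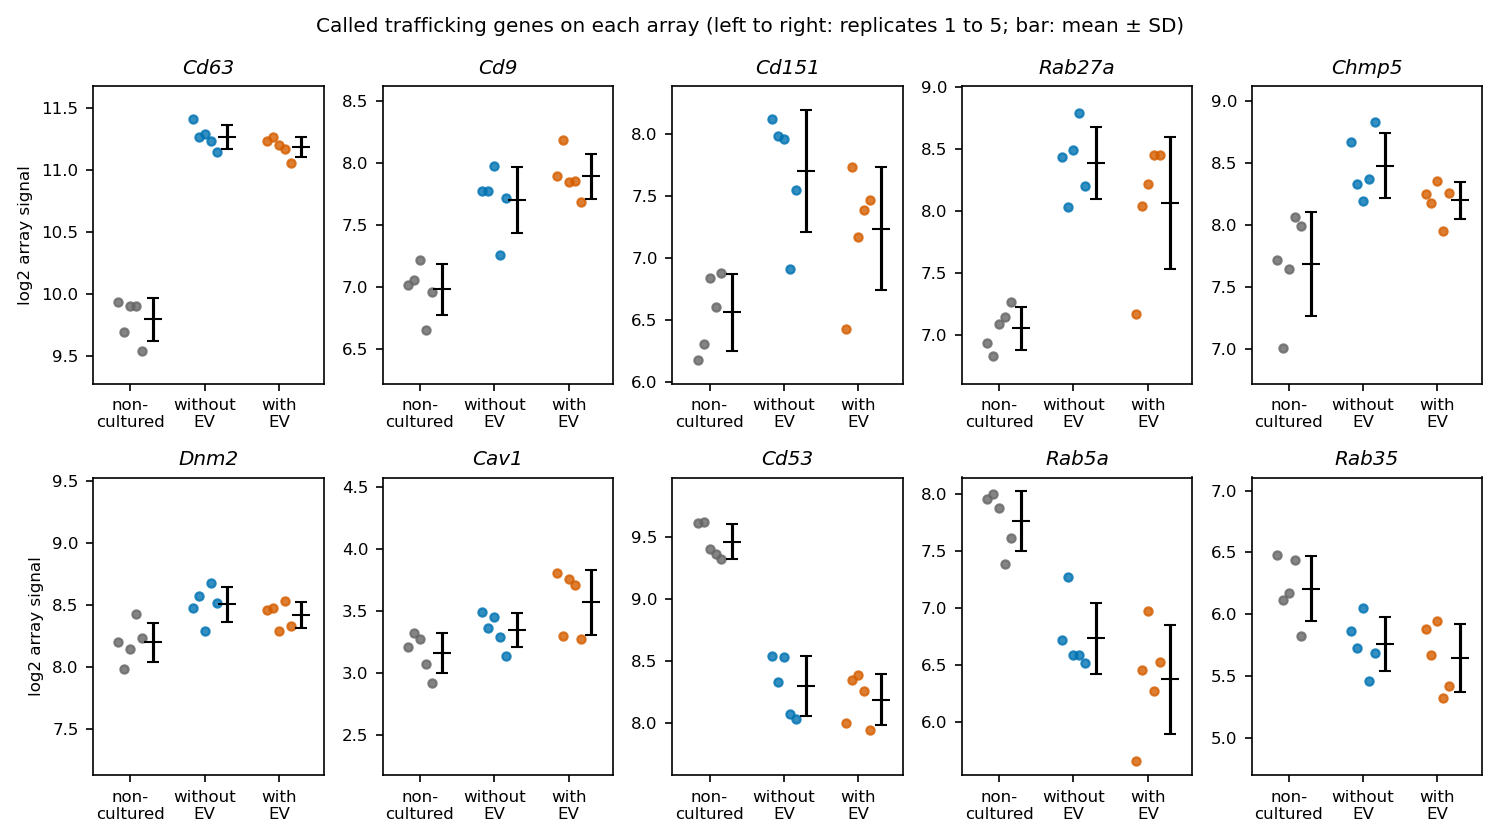
Log2 array signal (y axis, one scale per gene) of the 10 genes called in either culture comparison, with a point for each array in the order of replicates 1 to 5 and a bar for the mean ± SD of each group. Cd63 sits at 11.05 to 11.41 on all 10 cultured arrays against 9.54 to 9.93 before culture, and Cd53 at 7.94 to 8.54 against 9.32 to 9.62.

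Rab GTPases mark membranes and recruit the motors, tethers and fusion proteins that move vesicles. Rab27a, which docks late endosomes and secretory granules at the plasma membrane, rose 2.52-fold without EV and 2.01-fold with EV. It was at 6.94, 6.83, 7.09, 7.15 and 7.27 on the non-cultured arrays, 8.44, 8.03, 8.49, 8.79 and 8.20 without EV, and 7.17, 8.04, 8.22, 8.45 and 8.45 with EV. Only with-EV replicate 1 fell inside the non-cultured range. The differences were 1.33 ± 0.21 (adjusted p = 0.000355) and 1.01 ± 0.21 (adjusted p = 0.00343). Its close relative Rab27b, which acts at another step of the same docking, was at 4.76 to 5.58 before culture, 4.95 to 5.43 without EV and 4.91 to 5.46 with EV, and differed by -0.03 ± 0.15 and 0.06 ± 0.15. The change in Rab27a minus that in Rab27b was 1.36 without EV (exact permutation p = 0.00794) and 0.95 with EV (exact permutation p = 0.0159), and both missed the threshold after adjustment (0.0571).

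Rab5a, which drives fusion of early endosomes, was at 7.95, 8.0, 7.87, 7.38 and 7.61 before culture, 6.72, 7.27, 6.58, 6.58 and 6.51 without EV, and 5.65, 6.45, 6.97, 6.27 and 6.52 with EV. All cultured arrays lay below all non-cultured ones, with without-EV replicate 2 nearest to them. Rab5a fell by 1.03 ± 0.21 without EV (2.04-fold, adjusted p = 0.00299) and by 1.39 ± 0.21 with EV (2.62-fold, adjusted p = 0.000248). Rab5b, an isoform of the same early endosomal GTPase taken from the list of other Rab genes, was at 5.88, 5.84, 5.72, 6.54 and 6.08 before culture, 7.57, 7.74, 7.57, 7.07 and 7.76 without EV, and 6.93, 7.44, 6.49, 6.76 and 6.56 with EV. It rose by 1.53 ± 0.19 without EV (adjusted p = 4.07e-05) and by 0.82 ± 0.19 with EV (adjusted p = 0.00778). The change in Rab5a minus that in Rab5b was -2.56 without EV and -2.21 with EV, a description with no test, since the pair was set side by side after its values were known.

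Rab35, which acts in recycling from the plasma membrane and in exosome release, was at 6.48, 6.12, 6.17, 6.44 and 5.83 before culture, 5.87, 5.73, 6.05, 5.46 and 5.69 without EV, and 5.88, 5.67, 5.95, 5.33 and 5.42 with EV. It fell by 0.56 ± 0.15 with EV (adjusted p = 0.0203) and missed the threshold without EV (-0.45 ± 0.15, adjusted p = 0.0647). The groups overlapped through non-cultured replicate 5. The call with EV was lost when non-cultured replicate 1 or 4, or with-EV replicate 4 or 5, was left out (adjusted p 0.0537 to 0.0592). Without EV the adjusted p was 0.0254 without non-cultured replicate 5 and 0.0424 without without-EV replicate 3. Rab11a, a GTPase of recycling endosomes, differed by -0.20 and -0.30, and Rab7, which marks late endosomes, by 0.02 and -0.06; neither was called.

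The ESCRT complexes act in order: ESCRT-0 gathers ubiquitinated cargo, ESCRT-I and ESCRT-II bend the membrane, and ESCRT-III filaments cut the neck of the bud. Of the 14 subunits, 1 was called without EV (7.14%, beside 13.6% of all genes) and 0 with EV (beside 14.1%). Without EV, 4 of the 14 had an unadjusted limma p under 0.05 (28.6%, beside 24.3% of all genes). With EV, 1 of the 14 did (7.14%, beside 26.0% of all genes). Chmp5, an ESCRT-III protein, was at 7.72, 7.01, 7.64, 8.06 and 7.99 before culture, 8.67, 8.33, 8.19, 8.37 and 8.83 without EV, and 8.25, 8.18, 8.35, 7.95 and 8.26 with EV. Its 5 without-EV arrays lay above all non-cultured arrays, and with EV only replicate 4 fell among them. It rose 1.73-fold without EV (0.79 ± 0.17, adjusted p = 0.00536). With EV the difference was 0.51 ± 0.17 (adjusted p = 0.0630), and the adjusted p was 0.0346 without non-cultured replicate 4 and 0.0439 without non-cultured replicate 5.

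In ESCRT-0, Hgs, the cargo-binding subunit, differed by 0.18 and 0.15, Stam by 0.08 and -0.35, and Stam2 by 0.44 (adjusted p = 0.0747) and 0.21. Stam2 passed the threshold when without-EV replicate 1 (0.53, adjusted p = 0.0404) or with-EV replicate 1 (0.44, adjusted p = 0.0261) was left out. Stam and Stam2 are alternative partners of Hgs, and with EV the change in Stam minus that in Stam2 was -0.55, which missed the threshold after adjustment (exact permutation p = 0.0159, adjusted 0.0571). In ESCRT-I, Tsg101, which also binds viral and exosomal cargo, differed by -0.03 and -0.13. Vps28, which joins ESCRT-I to ESCRT-II, differed by 0.37 (adjusted p = 0.0809) and 0.06, and its call without EV appeared when without-EV replicate 5 (0.44, adjusted p = 0.0446) or with-EV replicate 5 (0.37, adjusted p = 0.0335) was left out. Vps37b, a core ESCRT-I subunit, differed by -0.32 and 0.36, and Vps36, the ubiquitin-binding subunit of ESCRT-II, by -0.27 and -0.18. Among the other ESCRT-III proteins the differences ran from -0.47 (Chmp6) to 0.32 (Chmp2a) without EV and from -0.68 (Chmp6) to 0.20 (Chmp3) with EV, and Chmp1a, Chmp2b and Chmp4b lay between them. Chmp6, which starts the filament, varied most with EV, at 4.95, 6.81, 6.60, 7.0 and 5.6. The mean of its 2 probe sets differed by -0.27 without EV and -0.24 with EV.

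The 4 partners of the ESCRT machinery were not called in either comparison. Vps4a and Vps4b, the ATPases that take ESCRT-III apart, differed by 0.19 and 0.31 without EV and by -0.12 and 0.10 with EV. Pdcd6ip, which encodes ALIX, differed by 0.32 (adjusted p = 0.103) and 0.12, and Sdcbp, which encodes the ALIX partner syntenin, by -0.17 and -0.34 (adjusted p = 0.0820). Some of these stood near the threshold: Vps4b passed it without EV when non-cultured replicate 4 was left out (0.39, adjusted p = 0.0259), Pdcd6ip without EV when with-EV replicate 1 was left out (0.32, adjusted p = 0.0351), and Sdcbp with EV when with-EV replicate 2 was left out (-0.45, adjusted p = 0.0118).

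Ceramide made by sphingomyelinases can drive vesicle budding without ESCRT. Neither Smpd1, the acid enzyme of lysosomes (0.05 and 0.19), nor Smpd3, a neutral enzyme (0.18 and 0.30, the latter with adjusted p = 0.0865), was called. Smpd1 had the largest spread of the 40 genes before culture, with an SD of 0.69.

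Among the genes of membrane rafts and endocytosis, Dnm2, the dynamin that cuts endocytic necks, was at 8.20, 7.98, 8.14, 8.42 and 8.23 before culture, 8.47, 8.57, 8.29, 8.67 and 8.51 without EV, and 8.46, 8.47, 8.29, 8.53 and 8.33 with EV. It rose 1.24-fold without EV (0.31 ± 0.09, adjusted p = 0.0423), in groups that overlapped, and differed by 0.22 with EV (adjusted p = 0.152). The call was lost, with adjusted p of 0.0519 to 0.113, when non-cultured replicate 1, 2, 3 or 5, without-EV replicate 1, 2, 4 or 5, or with-EV replicate 2 was left out, and also when the fit held only the 2 groups compared (0.0662) or another variance prior (0.0579). Cav1, the coat protein of caveolae, was at 3.21, 3.32, 3.27, 3.07 and 2.92 before culture, 3.49, 3.36, 3.45, 3.29 and 3.14 without EV, and 3.81, 3.30, 3.76, 3.71 and 3.27 with EV, below the array median on all 15 arrays. It was called higher with EV (0.41 ± 0.12, adjusted p = 0.0347), and the call was lost when non-cultured replicate 1, 4 or 5 or with-EV replicate 1, 3 or 4 was left out (adjusted p 0.0558 to 0.0870), or when the fit held only the 2 groups compared (0.0687). Flot1, a raft scaffold and vesicle marker, differed by 0.41 (adjusted p = 0.0929) and 0.24, its partner Flot2 by 0.04 in both, and Cltc, the clathrin heavy chain, by -0.04 and -0.21.

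Mfge8, a secreted bridge between phosphatidylserine and integrins, was at 7.17, 7.13, 7.09, 6.91 and 7.02 before culture, 6.59, 6.56, 6.64, 6.68 and 6.65 without EV, and 6.20, 6.67, 7.34, 6.69 and 6.24 with EV. The without-EV arrays all lay below the non-cultured ones, and with-EV replicate 3 lay above them. The differences of -0.44 ± 0.16 (adjusted p = 0.0918) and -0.43 ± 0.16 (adjusted p = 0.0909) missed the threshold, and without with-EV replicate 3 they were -0.44 (adjusted p = 0.0103) and -0.61 (adjusted p = 0.00165). Timd4, a phosphatidylserine receptor of macrophages, lay below the array median on all 15 arrays and differed by -0.03 and 0.18. In all, 6 genes lay higher and 3 lower without overlap of arrays without EV (beside 5.89% and 6.10% of all genes), Cd81 and Mfge8 among them, and 2 higher and 2 lower with EV (beside 5.06% and 6.18%).

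**Figure D2:**
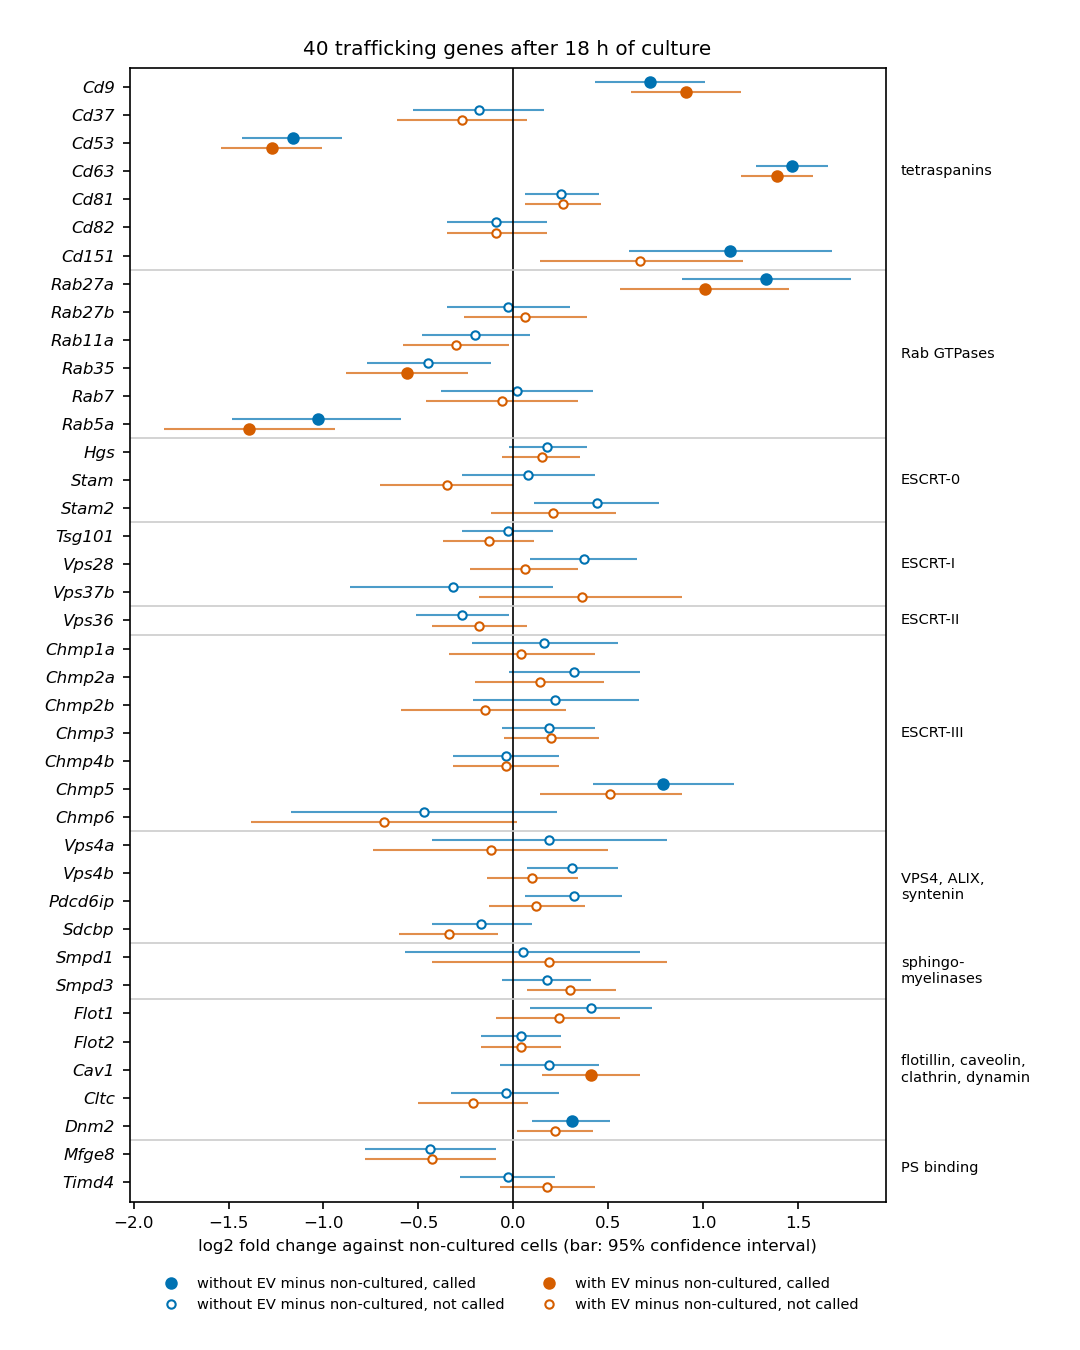
Log2 fold change of each of the 40 genes against the non-cultured cells (x axis), without EV in blue and with EV in orange, with 95% confidence intervals and filled points for called genes (PS, phosphatidylserine). The fold changes run from -1.16 (Cd53) to 1.47 (Cd63) without EV and from -1.39 (Rab5a) to 1.39 (Cd63) with EV, and most of the ESCRT intervals cross 0.

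The comparison of the cultures with and without EV asks what the vesicles changed. It called 0 of the 40 genes at a limma adjusted p below 0.05, beside 0.198% of all genes (0.180% higher and 0.018% lower). In 0 of the 40 did the arrays of the 2 cultures not overlap, beside 1.20% of all genes (0.762% higher and 0.437% lower). Unadjusted, 3 of the 40 had a p below 0.05 (7.50%), beside 6.82% of all genes. They were all ESCRT genes. Vps37b, at 7.73, 7.77, 7.85, 6.68 and 6.98 without EV and 7.64, 8.26, 8.54, 8.22 and 7.74 with EV, was 0.68 higher with EV (95% confidence interval 0.15 to 1.21, limma adjusted p = 0.602). Without-EV replicates 4 and 5 lay below all with-EV arrays, and the other 3 lay among them. Stam, at 5.62, 6.39, 6.26, 6.48 and 6.37 without EV and 5.44, 5.81, 5.81, 5.86 and 6.05 with EV, differed by -0.43 (interval -0.78 to -0.08, limma adjusted p = 0.627). Vps28, at 8.20, 7.93, 8.28, 8.16 and 7.78 without EV and 7.96, 7.77, 7.89, 7.86 and 7.30 with EV, differed by -0.31 (interval -0.60 to -0.03, limma adjusted p = 0.683).

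A missed threshold does not show that the 2 cultures were alike, and the intervals give the size that these arrays leave possible. For 26 of the 40 genes the 95% confidence interval lay within 0.5 log2 units of 0 and for 38 within 1, the others being Cd151 (-1.0 to 0.07) and Vps37b. The intervals of the genes with the clearest culture response were -0.27 to 0.11 for Cd63, -0.38 to 0.16 for Cd53, -0.10 to 0.48 for Cd9, -0.77 to 0.12 for Rab27a and -0.80 to 0.09 for Rab5a. Of the 40 differences, 28 were below 0 (70.0%, beside 47.2% of all genes), with a median of -0.10 beside 0.01. Of the 277 other pathway genes described below, 56.0% were below 0. The median of all genes without the dimmest 40% was -0.02. All 4 partners of the ESCRT machinery and 11 of its 14 subunits were below 0, as described by sign alone. The spread differed between the groups: the median SD of the 40 genes was 0.17 before culture, 0.21 without EV and 0.25 with EV, beside 0.18, 0.18 and 0.21 for all genes, and the largest was 0.88 for Chmp6 with EV.

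**Figure D3:**
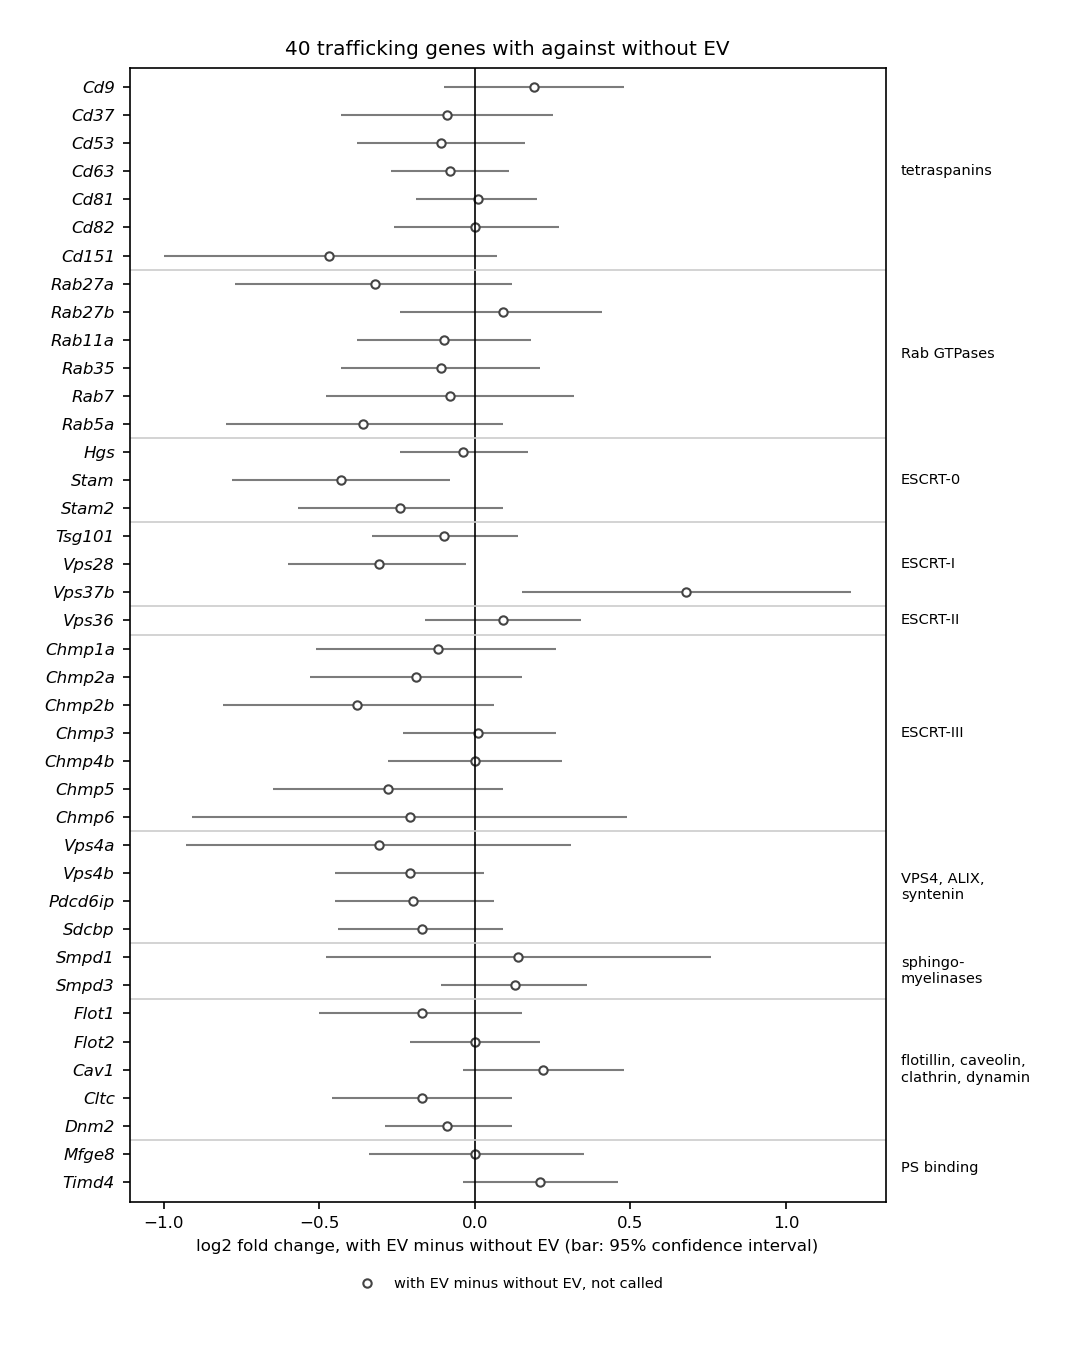
Log2 fold change of each of the 40 genes in culture with EV minus without EV (x axis), with 95% confidence intervals, ordered by role. No gene was called: the fold changes run from -0.47 (Cd151) to 0.68 (Vps37b), and the intervals of Vps37b, Stam and Vps28 leave out 0.

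The wider pathway was described with 8 lists of other genes, 277 of 280 of them measured. Without EV, 49 of these genes were called higher and 18 lower (24.2%, beside 13.6% of all genes), and with EV 41 higher and 21 lower (22.4%, beside 14.1%). Among the 13308 genes left without the dimmest 40%, 1593 were called higher and 1573 lower without EV, and 1420 and 1812 with EV. Those brighter genes as a whole were thus called at shares near those of the 277. The lists were not set against genes of like brightness, so the shares of the 277 are no result about the pathway as a set. With EV against without EV, limma called 0 of the 277, and 22 had an unadjusted p below 0.05 (7.94%, beside 6.82% of all genes). The smallest adjusted p there was 0.362, for Rab5b, which was 0.71 lower with EV (interval -1.11 to -0.30).

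Among 23 other tetraspanins, 1 was called higher and 3 lower without EV (17.4%, beside 13.6% of all genes). The counts with EV were 1 and 4 (21.7%, beside 14.1%). Tspan13 fell by 1.36 ± 0.16 and 1.80 ± 0.16 (adjusted p = 2.55e-05 and 1.40e-06), Tspan6 by 1.83 ± 0.23 and 1.46 ± 0.23, and Tspan2 by 0.52 ± 0.11 and 0.62 ± 0.11. The called tetraspanins thus moved both ways in culture. Cd63, Cd9 (in its brighter probe set) and Cd151 (without EV alone) were among the higher ones. Cd53, Tspan13, Tspan6 and Tspan2 were among the lower. Of the 23 other tetraspanins, 19 were not called without EV and 18 not with EV. Among 23 other ESCRT and ESCRT-associated genes, 4 were higher and 1 lower without EV (21.7%, beside 13.6% of all genes). The counts with EV were 4 and 3 (30.4%, beside 14.1%). Tom1, an endosomal adaptor that binds ubiquitinated cargo, rose from 5.09, 3.89, 5.25, 4.53 and 4.10 before culture to 7.52, 7.70, 7.35, 7.25 and 7.39 without EV and 6.43, 7.78, 7.25, 7.77 and 6.78 with EV, which is 7.31-fold (adjusted p = 3.57e-06) and 6.20-fold (adjusted p = 8.54e-06). Cep55, which brings ESCRT to the bridge between dividing cells, fell by 1.43 ± 0.27 and 1.58 ± 0.27. Chmp1b, another ESCRT-III protein, fell by 1.18 ± 0.26 with EV (adjusted p = 0.00508) and differed by -0.71 without EV (adjusted p = 0.0845).

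Of 51 other Rab genes, 5 were higher and 2 lower without EV (13.7%), and 6 higher and 2 lower with EV (15.7%). These shares are near the 13.6% and 14.1% of all genes. Rab32, a GTPase of lysosome-related organelles, rose 2.49-fold and 2.11-fold, and Rab8b, which acts in traffic to the surface, fell by 0.99 ± 0.17 and 1.18 ± 0.17. Of 49 vesicle tethering, docking and fusion genes, 13 were higher and 3 lower without EV (32.7%, beside 13.6% of all genes). The counts with EV were 10 and 2 (24.5%, beside 14.1%). Ralb, which directs the exocyst tether, rose 2.37-fold and 1.89-fold. Vamp8, a SNARE of late endosomes and granules, rose 1.38-fold and 1.30-fold, while Vamp3, a SNARE of recycling endosomes, fell by 0.74 ± 0.18 without EV (adjusted p = 0.0105) and by 1.16 ± 0.18 with EV (adjusted p = 0.000321).

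Of 36 endosomal tethering and retromer genes, 14 were higher and 3 lower without EV (47.2%, beside 13.6% of all genes). The counts with EV were 4 and 3 (19.4%, beside 14.1%). Rabgef1, the exchange factor that activates Rab5, fell by 1.74 ± 0.19 (adjusted p = 1.22e-05) and 1.86 ± 0.19 (adjusted p = 5.71e-06), from 8.62, 8.47, 8.40, 7.70 and 8.02 before culture to 6.98, 6.54, 6.41, 6.08 and 6.51 without EV and 6.15, 6.83, 6.18, 6.51 and 6.23 with EV. Pik3c3, the lipid kinase that acts beside Rab5 on early endosomes, rose by 0.69 ± 0.12 without EV and by 0.45 ± 0.12 with EV (adjusted p = 0.0203). The call with EV was lost without non-cultured replicate 2 (0.0515), with-EV replicate 2 (0.0517), or non-cultured replicates 4 and 5 together (0.0966). Snx5, a retromer sorting nexin, fell by 0.62 ± 0.13 and 0.71 ± 0.13. Whether the count of 14 higher genes without EV differs from the 4 with EV was not tested. At an unadjusted limma p below 0.05 the list had 19 of 36 genes in each comparison (52.8%, beside 24.3% and 26.0% of all genes). Differences above 0 numbered 25 and 23. With EV against without EV, 0 of the 36 were called. Of 49 clathrin adaptor and caveolar coat genes, 5 were higher and 4 lower in each comparison (18.4%, beside 13.6% and 14.1% of all genes). Ehd4, an endocytic recycling ATPase, fell by 1.54 ± 0.20 and 1.32 ± 0.20. Sh3gl2, which encodes an endophilin, fell by 0.60 ± 0.09 and 0.45 ± 0.09 in its brighter probe set, but the mean of its probe sets gave -0.19 (adjusted p = 0.0995) and -0.15 (adjusted p = 0.206).

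Of 26 phosphatidylserine and vesicle uptake receptors, 5 were higher and 1 lower without EV (23.1%, beside 13.6% of all genes). The counts with EV were 7 and 1 (30.8%, beside 14.1%). Itgb3, the integrin beta chain that pairs with the alpha-v chain to bind Mfge8, rose 13.0-fold without EV (3.70 ± 0.19, adjusted p = 2.50e-09) and 12-fold with EV (3.58 ± 0.19, adjusted p = 4.30e-09). Its signal was 5.27, 4.77, 4.97, 5.69 and 5.95 before culture, 8.69, 9.23, 8.87, 9.16 and 9.17 without EV, and 8.91, 8.76, 8.99, 9.01 and 8.90 with EV. Itgb5, the other beta chain of the Mfge8 receptor, rose 3.39-fold and 3.29-fold, and Cd300a, a receptor for phosphatidylserine, rose 2.6-fold and 2.32-fold. Of 20 sphingomyelin and ceramide enzymes, 2 were higher and 1 lower without EV, and 4 higher and 2 lower with EV. Asah1, the acid ceramidase, rose 3.05-fold and 2.88-fold, and Cerk, the ceramide kinase, 3.21-fold and 3.12-fold. Both use ceramide as their substrate. Smpd4, a neutral sphingomyelinase, fell by 0.71 ± 0.20 and 0.96 ± 0.20. Its call without EV was lost, with adjusted p of 0.0516 to 0.0570, when non-cultured replicate 1, 2 or 4 or without-EV replicate 1 or 4 was left out.

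**Figure D4:**
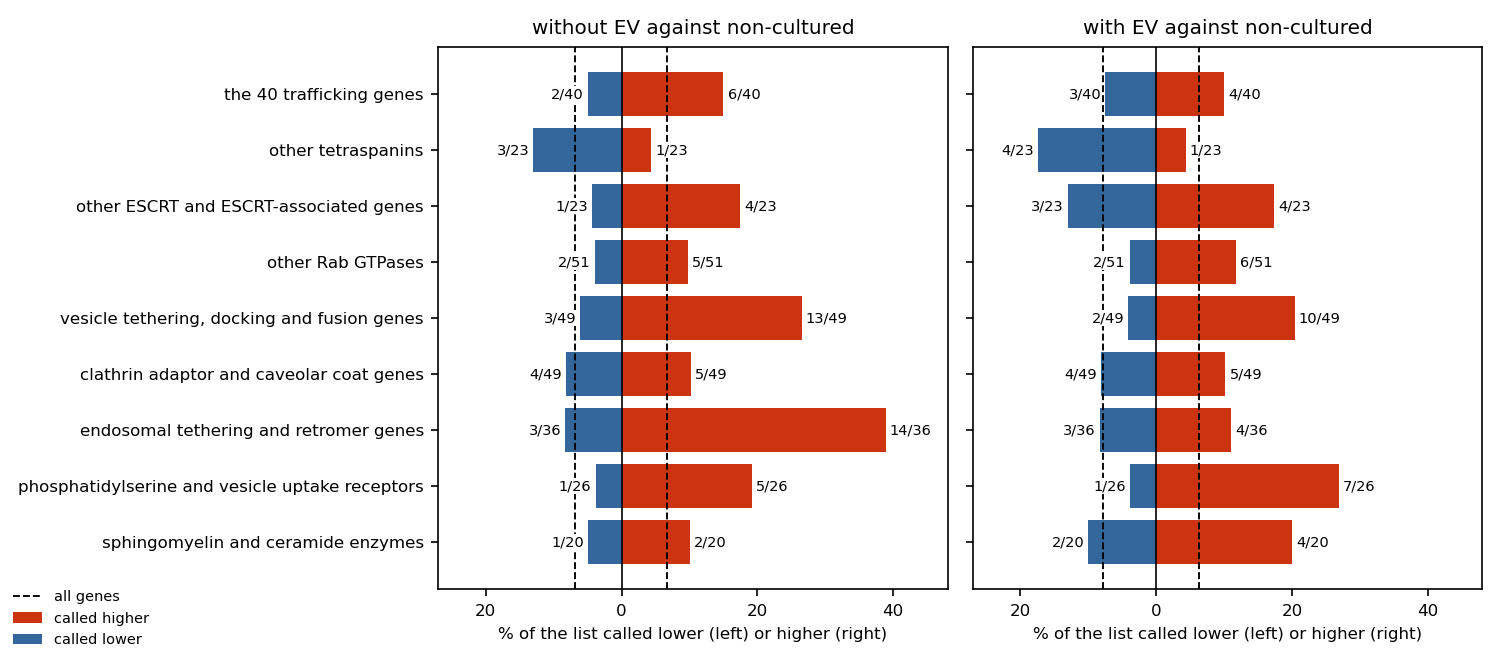
Share of each list called lower (blue, to the left) or higher (red, to the right) against the non-cultured cells (x axis, percent), without EV in the left panel and with EV in the right, with counts beside the bars and the shares of all genes as dashed lines. The endosomal tethering and retromer list has 14 of 36 genes higher without EV and 4 of 36 with EV, but 19 of 36 at an unadjusted limma p below 0.05 in each comparison.

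Markers of other cell types moved with culture, and their part in the results above was not tested. The mean of 9 monocyte and macrophage markers ran from 6.02 to 6.13 on the non-cultured arrays. It ran from 7.04 to 7.31 without EV and from 6.93 to 7.37 with EV. Of the 9, 6 were called higher and 0 lower in both comparisons (66.7%, beside 13.6% and 14.1% of all genes). Csf1r, the receptor that defines the lineage, rose 4.73-fold and 5.21-fold, and Fcgr1 lay below the array median on all 15 arrays. The 10 neutrophil granule markers averaged 6.34 to 7.83, 7.86 to 8.53 and 7.98 to 8.35, with non-cultured replicates 4 (6.43) and 5 (6.34) far below replicates 1 to 3 (7.72 to 7.83). They moved both ways: 4 were called higher and 2 lower without EV, and 3 higher and 1 lower with EV. Mmp8, a granule collagenase, rose by 4.32 and 3.99 on the log2 scale, while Mpo, the myeloperoxidase of early granules, fell by 0.66 and 0.58. Without those 2 arrays the same 8 of the 40 genes were called without EV. With EV, 3 of the 4 higher genes and the 3 lower ones were called again, while Cav1 was not (0.30, adjusted p = 0.211) and Chmp5 was (0.74, adjusted p = 0.0130). Of 7 megakaryocyte and platelet markers (5.48 to 5.81, 5.76 to 6.25 and 5.68 to 6.28), 1 was called in each comparison. It was Itga2b, the chain that pairs with Itgb3 on platelets, which rose 2.02-fold and 1.92-fold. That share of 14.3% is near those of all genes. The 4 erythroid markers averaged 5.43 to 5.76, 5.68 to 5.90 and 5.56 to 5.79. The 8 B and T lymphoid markers averaged 4.04 to 4.16, 3.85 to 4.08 and 3.98 to 4.32, with 5 of them below the array median on all arrays and 0 called by limma (0 without EV and 1 with EV at an unadjusted p below 0.05). The 10 stromal and mesenchymal markers averaged 4.84 to 4.99, 4.80 to 4.93 and 4.86 to 5.20. With EV against non-cultured cells 3 of these were called higher and 1 lower (beside 6.28% and 7.85% of all genes). Cav1, a gene abundant in stromal cells, was called in the same comparison, and a link between these calls was not tested. With EV against without EV, limma called 0 of the 10, and 4 had an unadjusted p below 0.05. No marker was at 0 on any array.

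**Figure D5:**
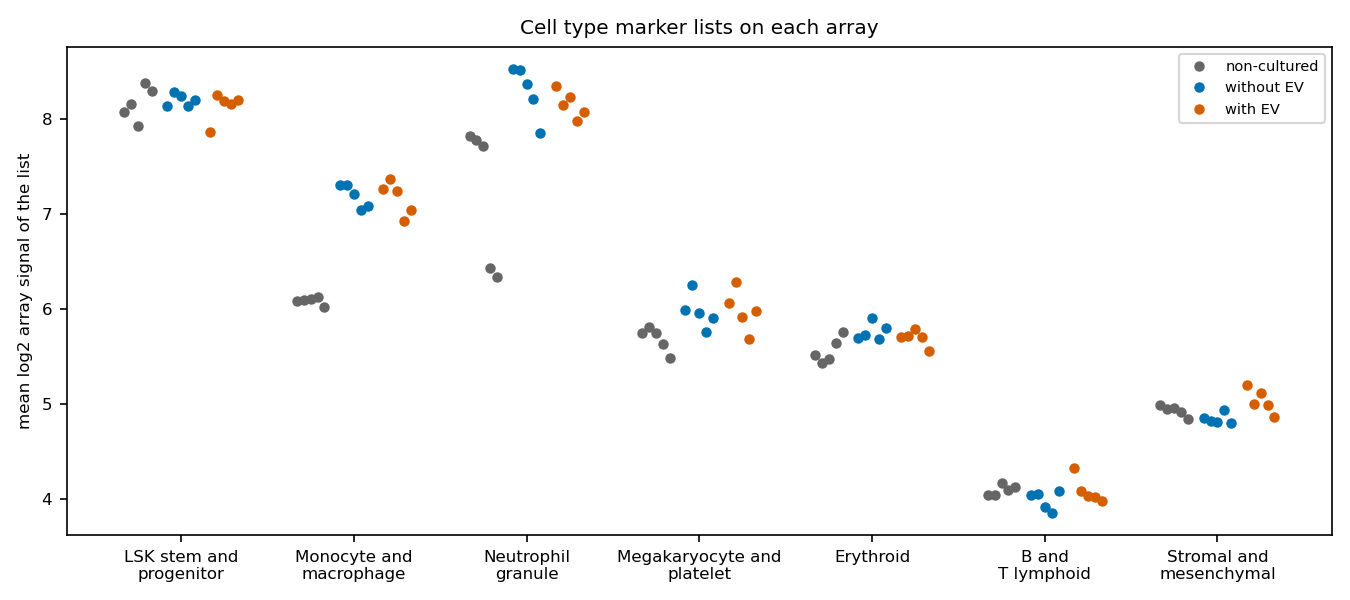
Mean log2 array signal (y axis) of each list of cell type markers (x axis), with a point for each array in the order of replicates 1 to 5 and a colour for each group. The monocyte and macrophage list separates cultured (6.93 to 7.37) from non-cultured arrays (6.02 to 6.13), while the LSK list does not (7.87 to 8.38 over all arrays).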

How the data were processed

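The authors' deposited table holds 41345 probe sets and 15 arrays. Its values are log2 by their range (1.40 to 13.0), although the deposited table does not state the base. The submitters' processing notes name MAS5, with no role, and how arrays were normalized is not given in the sources used here. Medians per array ranged from 4.62 to 4.74, so the values were used as deposited. Per the labels' protocols, targets were made from 500 pg of total RNA. No depth or detection call is given, and the number of arrays limits the precision (median SE 0.13).

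Probe sets with 1 gene symbol (23521) were kept, and those with several (1814) or none here (16010) were not used. Entrez identifiers of 23328 were found in RefSeq GRCm38.p6, and 0 symbols differed. The brightest probe set stood for each of 1082 genes with more than 1, which left 22180 genes. All genes were tested in R 4.3.3 with limma 3.58.1, using 1 mean per group and the 15 arrays together (12 residual and 3.66 prior degrees of freedom, two-sided, no minimum fold), after the code was tested on simulated data. Intervals are 95% confidence intervals of limma. Pairs of related genes were compared with exact permutation tests in scipy 1.17.1.

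The 41 genes and the lists were chosen with earlier results of these data known. All measured genes of the 41 could be named, the 4 called genes with the smallest p per other list and comparison (where none was called, the 1 with the smallest p), and the markers. No label gives a batch, date or animal. The alternatives were quantile normalization, median centring, no genes among the dimmest 40%, the mean of probe sets, the spread from 2 groups alone, array weights, another variance prior, a replicate block and each array left out. Leaving out non-cultured replicates 4 and 5 together was chosen after seeing the data.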

Additional observations from a re-analysis of the deposited data

Results flagged for a closer look

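An array far from the 4 others of its group, by Dixon's limit for 5 values, was found in 9 of 120 groups (40 genes in 3 groups). Chance alone gives about 1 in 20, or 6 of 120.

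Cd82 was at 6.18 on non-cultured replicate 1, above the others at 6.05 to 6.07, and at 5.72 on with-EV replicate 5, below the others at 6.05 to 6.08. Rab5a was at 7.27 on without-EV replicate 2, above the others at 6.51 to 6.72, the array nearest to the non-cultured cells. Stam was at 5.62 on without-EV replicate 1, below the others at 6.26 to 6.48. Chmp4b was at 7.33 on with-EV replicate 4, below the others at 7.58 to 7.66, and Pdcd6ip at 8.57 on with-EV replicate 1, below the others at 9.02 to 9.20. Smpd3 was the highest on replicate 5 in both cultures, at 5.06 without EV (others 4.80 to 4.84) and 5.39 with EV (others 4.84 to 4.98). Timd4 was at 3.88 on without-EV replicate 5, below the others at 4.05 to 4.08.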

How the results depend on the processing

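Cd63, Cd53, Cd9, Rab27a and Rab5a were called in both culture comparisons, and Cd151 and Chmp5 without EV, under all 24 alternatives. None of the 40 genes was called with EV against without EV under any of them. Quantile normalization raised the genes called higher from 6 to 10 without EV, adding Cd81, Stam2, Vps4b and Pdcd6ip, and from 4 to 7 with EV, adding Cd81, Chmp5 and Dnm2. Over all genes it also raised those called higher, from 1497 to 1650 without EV and from 1394 to 1691 with EV. Those called lower went from 1525 to 1399 and from 1741 to 1470. The cause was not tested. Among all genes, 44 were called with EV against without EV, and 29 to 53 with 1 array left out (29 without without-EV replicate 2, 53 without with-EV replicate 5). Of 2874 values of the 40 genes under the alternatives, 2815 kept their side of the threshold, 23 lost the call, 36 gained it and 0 called ones reversed. Among the 2815, 89 that were not called changed sign. Of 3165 values of other named genes, 3108 kept their side, 24 of them uncalled ones that changed sign, 42 lost the call and 15 gained it.

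Replicate numbers were not taken to pair the samples: deviations of same-numbered arrays correlated at -0.12 to 0.19 (median 0.02), beside -0.12 to 0.11 for other pairs. With a replicate block, 8 of the 40 genes were higher and 3 lower without EV, 4 higher and 4 lower with EV, and 0 differed with EV against without EV. Among other genes named above, it ended the calls of Pik3c3 with EV (adjusted p = 0.0522) and Smpd4 without EV (0.0513). Over all genes the block gave 2987, 3063 and 39 calls. Cav1, Timd4 and other dim genes may lie near background, which these values cannot show.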
